A study of Mus musculus with 35 samples.

Results

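Histone methyltransferases and demethylases, the enzymes that set and remove methyl groups on histones, were chosen by symbol, with earlier results of these data known. Taken were Kmt, Kdm, Setd, Setdb, Ehmt, Ezh, Suv39h, Nsd, Whsc1, Ash1l, Dot1l and Prmt genes, without the sex-linked Kdm5c, Kdm5d and Kdm6a. This gave 50 of 14870 rows of the expression matrix, from 53 before those genes were left out. By symbol alone, the 15 Kdm genes are called demethylases here and the other 35 methyltransferases, and not all need act on histones. Bulk RNA came from mouse medial prefrontal cortex (mPFC), in 35 libraries of 8 groups. Wild-type mice (WT) gave 6 WT_control, 4 WT_abx, 5 WT_acetate and 4 WT_abx_and_acetate libraries, and Shank3 deficient mice (KO) gave 4 KO_control, 3 KO_abx, 5 KO_acetate and 4 KO_abx_and_acetate libraries. Controls drank water, abx stands for antibiotics, and the last group of each genotype received antibiotics and acetate. Labels name 15 females and 20 males; the Shank3 allele, strain, age, doses and duration were not found in them. No label states that every library is its own animal, so the tests speak only of spread among libraries, which may be technical.

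Methyl groups on histone tails act through the proteins that read them. Methylation of histone H3 at lysine 4, 36 and 79 (H3K4, H3K36, H3K79) marks active genes, and methylation at lysine 9 and 27 (H3K9, H3K27) marks silent ones. The methyl donor is S-adenosylmethionine, and the JmjC demethylases need alpha-ketoglutarate, so both reactions draw on metabolism. Loss of KMT2A, EHMT1, NSD1, ASH1L, SETD5 or KDM6B function causes neurodevelopmental disorders in people.

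Values are log2 CPM, the log2 of counts scaled to library size, so a difference of 1 is a doubling. Depth was 12.8 to 28.03 M reads. Shank3 was at 7.48 to 8.85 in libraries labelled WT and 4.07 to 5.11 in those labelled KO. In 3 libraries labelled WT (WT_abx 4, WT_acetate 2 and WT_acetate 5) Shank3 was low for WT and its neighbour Acr, otherwise high in KO, was at 4.56, 4.46 and 3.62, which goes against their labels. In 4 (WT_abx 3, WT_acetate 2, 4 and 5) Y-linked genes did not match the labelled sex, at a limit of 10% of the median of libraries labelled male. WT_acetate 5, labelled female, lay at 34.3%, between WT_acetate 2 and 4 (4.83% and 5.41%) and WT_abx 3 (108%). Counts of enzymes at an unadjusted p under 0.05 that rest on these 5 libraries are also given without them. So are the folds of WT_acetate and WT_abx against WT_control given for Kmt2a, Kdm6b, Kdm7a and Dot1l. Of the other folds, only those with the 3 smallest p-values in each direction of a comparison were checked without the 5. Those given below are repeated where they moved by over 1.5 times. Counts of folds above or below 0 were not repeated without the 5. All 12 cortical excitatory neuron markers were present (median 6.36). KO_acetate 1 stood apart, with striatal neuron markers summing to 1411 CPM (227 to 305 in the other libraries) and oligodendrocyte markers to 10723 CPM (1294 to 5576). The library labelled WT_abx 4 also stood apart, with meningeal and choroid plexus markers at 402 CPM (29.3 to 150 in the others) and endothelial and pericyte markers at 790 CPM (at most 693). In bulk tissue, fewer cells of a type and less RNA per cell cannot be told apart.

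All 50 enzymes had a mean above 0 log2 CPM: levels ran from 0.28 log2 CPM for Kdm4d to 7.79 for Ehmt2, with a median of 5.76 against 4.46 over all rows. Spread between libraries of a group was small, with a median residual SD of 0.124, against 0.122 for rows of like level. The 50 summed to 3079 to 3602 CPM per library. WT_control, at 3382 to 3570 CPM, lay wholly above WT_abx, at 3102 to 3314 CPM, where WT_abx 3 and 4 are doubted libraries. In KO the groups overlapped, with KO_control at 3242 to 3530 CPM and KO_abx at 3278 to 3590 CPM.

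Levels per length (log2 CPM per kb of exon) show which enzyme of each kind leads. Ehmt2 (G9a), an H3K9 methyltransferase, stood highest of all 50 at 5.33, above its partner Ehmt1 at 2.03, and Setdb2 was the lowest H3K9 enzyme at -0.22. Of the catalytic subunits of polycomb repressive complex 2, which methylates H3K27, Ezh1 was at 3.21 and Ezh2, the form of dividing cells, at -0.46. Among arginine methyltransferases the brain enzyme Prmt8 led at 5.16 and Prmt9 was lowest at 1.61, with Prmt1, the main maker of asymmetric dimethylarginine, at 3.97.

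The genes grouped here as H3K4 methyltransferases are Kmt2a, Kmt2b, Kmt2c, Kmt2d, Kmt2e, Setd1a, Setd1b and Setd7. The grouping is a list, and activity on H3K4 was not measured for any of them. They ran from Setd7 at 3.80 and Kmt2a (MLL1) at 3.47 down to Setd1b at 1.96 per length. H3K36 methyltransferases ran from Ash1l at 3.73 to Whsc1l1 at 2.67. Dot1l, the H3K79 methyltransferase, was at 2.94 and Kmt5a, which methylates H4K20, at 2.92. Setd3, an actin methyltransferase, was at 4.65 and Setd4 at 0.35. Of the demethylases, Kdm4b led at 3.73 and Kdm4d was last at -1.24. Kdm1a (LSD1) was at 3.40 and Kdm1b at 0.95, Kdm5b at 1.93 and Kdm5a at 1.81 for H3K4, Kdm6b for H3K27 at 1.93, and Kdm8 at 0.89.

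**Figure D1:**
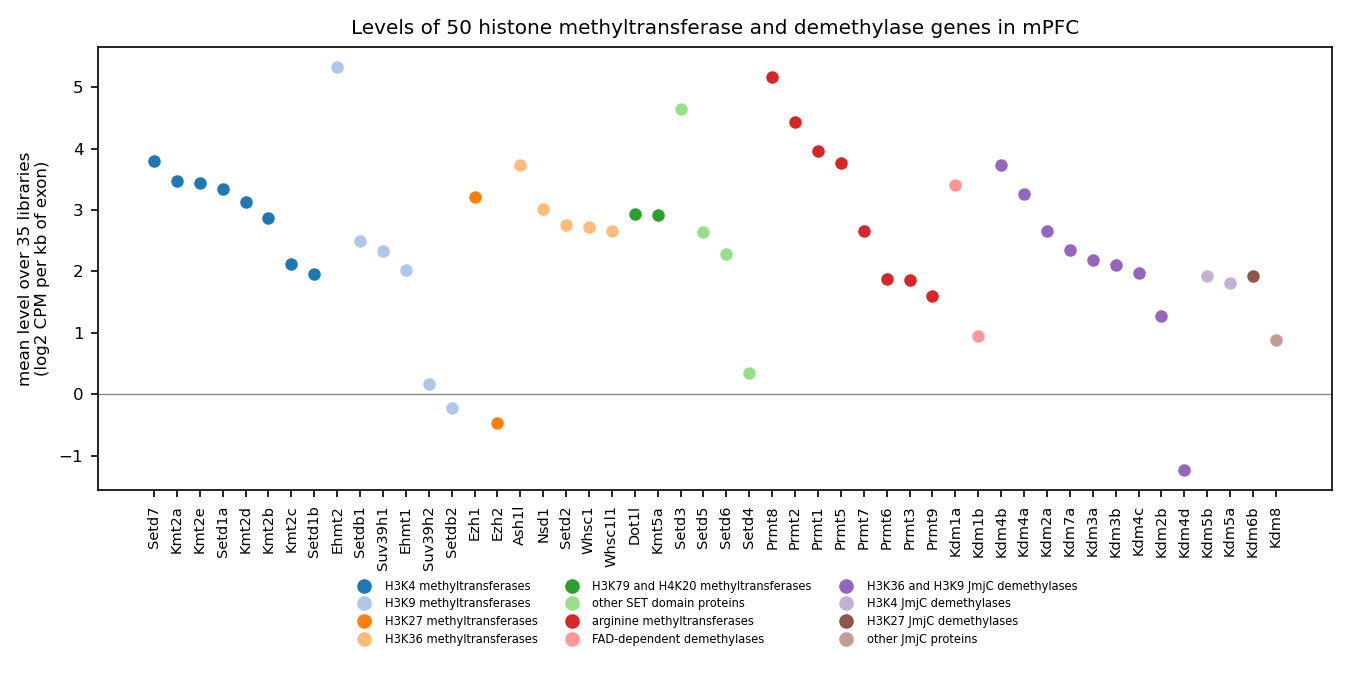
Mean level of each of the 50 genes over 35 libraries, in log2 CPM per kb of exon, coloured by role. Ehmt2 at 5.33 and Prmt8 at 5.16 are highest and Kdm4d at -1.24 is lowest.

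Exon lengths came from the GENCODE annotation of GRCm38, where Whsc1 and Whsc1l1 are called Nsd2 and Nsd3. The enzymes had a median of 6824 exon bases against 4476 over matched rows and lay on 20 chromosomes, with Suv39h1 alone on X. Exons of 9 overlap exons of another row on the opposite strand (Ash1l, Kdm1b, Kdm2b, Kdm5a, Kmt2e, Prmt7, Setdb1, Suv39h2 and Whsc1). No source used here states whether reads were counted by strand, so reads of these genes and their neighbours may be mixed.

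In all 18 comparisons, no enzyme passed an adjusted p of 0.05 (limma, Benjamini-Hochberg over all 14870 rows), and limma with voom weights from recovered reads also called 0. Values are therefore given without a call, and the counts at an unadjusted p under 0.05 are set beside the same share of all rows. Where groups are said not to overlap, the share of all rows that separate likewise was not counted. For a typical enzyme the 95% interval of a difference between groups reached 0.157 to 0.199 log2 to either side.

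**Figure D2:**
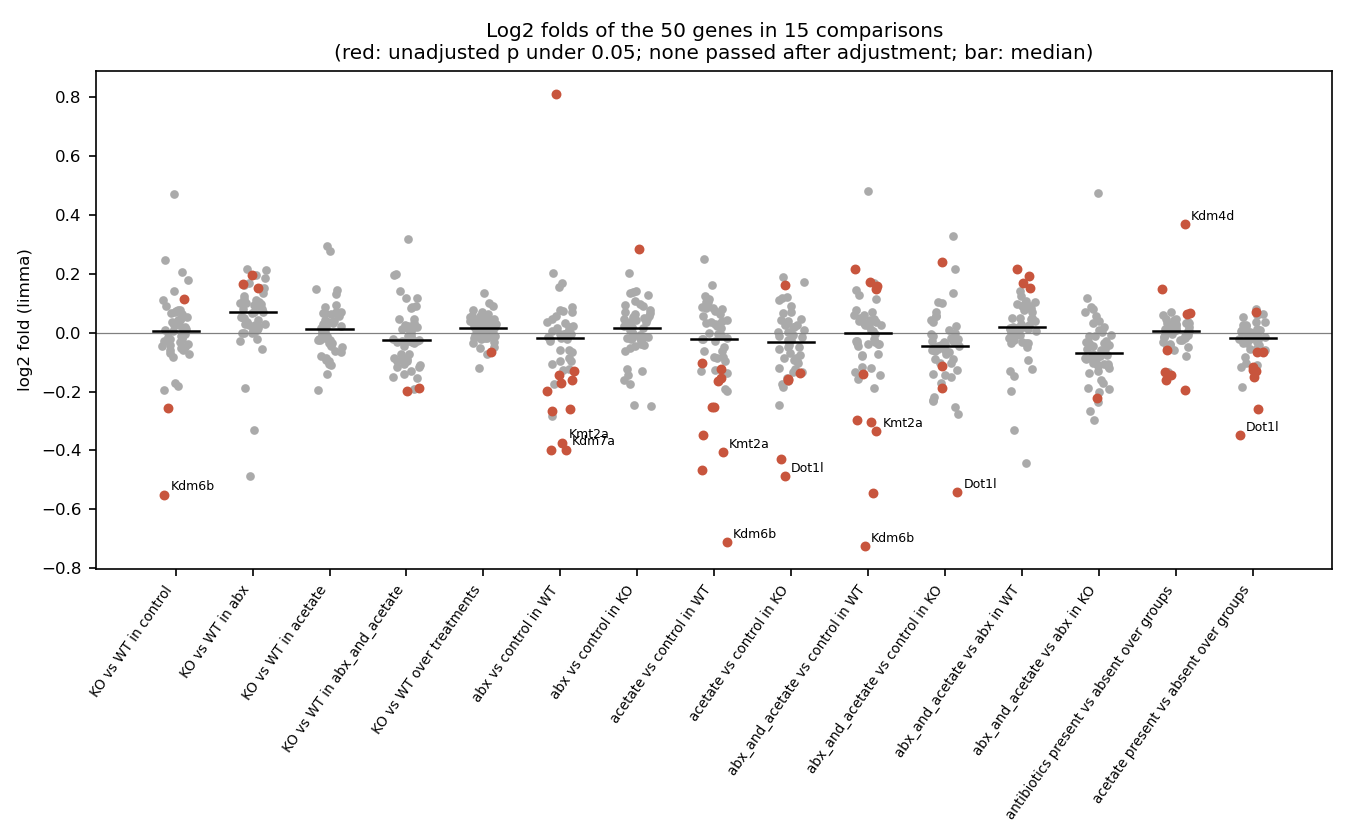
Log2 folds of the 50 genes, 1 point each, in 15 comparisons, with the median as a bar and an unadjusted p under 0.05 in red. Kdm6b reaches -0.72 in WT_abx_and_acetate against WT_control and Kdm4d 0.81 in WT_abx against WT_control, and no point passed after adjustment.

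Comparing KO with WT asks what loss of Shank3 does to these genes. In control mice, 0 of 50 enzymes passed (0.0202% of all rows did) and 3 had an unadjusted p under 0.05, or 6% against 4% of all rows. Kdm6b, an H3K27 demethylase induced by stimuli in many cells, was at 4.82, 4.43, 4.59 and 4.76 log2 CPM in KO_control and at 4.89 to 5.47 with a median of 5.21 in WT_control. The groups did not overlap, and the log2 fold was -0.55 ± 0.20 (SE; adjusted p 0.924). Kmt2a stood at -0.26 ± 0.10 (adjusted p 0.965) and Setd1b, another H3K4 methyltransferase, at -0.18 ± 0.09 (adjusted p 1). Of the demethylases of H3K9 and H3K36, Kdm4c stood at 0.11 ± 0.06 (adjusted p 1), Kdm4d at 0.47 ± 0.27 (adjusted p 1) and Kdm4a at 0.09 ± 0.06 (adjusted p 1). KO_control 1 was the highest of its group for Kdm4d, at 1.14, and for Kdm4a, at 6.06. Over the alternatives run, the fold of Kdm4d ran from 0.25 to 0.59 and that of Kdm4a from 0.03 to 0.13. Of the 50 folds 26 were above 0, with a median of 0.01, where 49.3% of all rows were above 0.

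Immediate early genes, which neurons switch on with activity, are given beside these values. The 22 on the list summed to 2740 ± 718 CPM (SD, n = 6) in WT_control and 1484 ± 707 CPM (n = 4) in KO_control. Fos stood at -1.82 ± 0.47 (adjusted p 0.39) and Junb at -1.36 ± 0.30 (adjusted p 0.269). Their part in the Kdm6b value was not tested.

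Under antibiotics, 0 of 50 enzymes passed (0.0134% of all rows did) and 3 had an unadjusted p under 0.05, or 6% against 3.78% of all rows. All 3 were higher in KO, where 1.61% of all rows were. Nsd1, an H3K36 methyltransferase, was at 7.21, 7.21 and 7.32 in KO_abx and 7.10, 6.91, 7.08 and 7.10 in WT_abx, without overlap. Its log2 fold was 0.20 ± 0.07 (adjusted p 0.995), and 0.24 ± 0.09 (adjusted p 0.998) without the 5 doubted libraries, when 3 enzymes had an unadjusted p under 0.05. Kdm5b stood at 0.17 ± 0.07 (adjusted p 0.995) and Whsc1l1 at 0.15 ± 0.06 (adjusted p 0.995). Kdm4d stood at -0.49 ± 0.32, Kdm6b at -0.33 ± 0.23 and Setdb2 at -0.19 ± 0.26, and without the 5 doubted libraries Kdm4d at -0.29 ± 0.38 and Setdb2 at -0.11 ± 0.32. Folds leaned upward, with 43 of 50 above 0 (median 0.07) where 50.3% of all rows were, and 8 of 8 H3K4 methyltransferases (median 0.15). These counts were not repeated without the 5 doubted libraries, which include WT_abx 3 and 4. The mean deviation of the 50 from their means over 35 libraries was 0.057, -0.023 and 0.091 in KO_abx. In WT_abx it was 0.009, -0.059, 0.004 and -0.019, so the groups overlapped. In the same comparison 21 of 22 immediate early genes (median -0.64) and 15 of 16 oligodendrocyte markers (-0.37) had folds below 0. So had 12 of 12 endothelial and pericyte markers (-0.18) and 5 of 5 blood markers (-0.92). Endothelial and pericyte markers summed to 632, 447, 464 and 790 CPM in WT_abx, the last in the doubted WT_abx 4. In KO_abx they summed to 484, 589 and 431 CPM. The marker counts were not repeated without the doubted libraries. The part of these lists in the lean was not tested.

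Under acetate, 0 of 50 enzymes passed (0.00672% of all rows did) and 0 had an unadjusted p under 0.05, or 0% against 5.97% of all rows. Kdm4c stood at -0.11 ± 0.05 (adjusted p 0.832), Ehmt2 at -0.11 ± 0.06 and Ash1l at -0.08 ± 0.06, and on the higher side Kdm1b at 0.15 ± 0.08, Ezh2 at 0.30 ± 0.17 and Kmt5a at 0.15 ± 0.10. The fit without the 5 doubted libraries gave 3 enzymes at an unadjusted p under 0.05, with Kdm4c at -0.08 ± 0.07, Ehmt2 at -0.04 ± 0.08 and Ash1l at -0.14 ± 0.07. Without KO_acetate 1, in which Ezh2 and Kdm1b were highest, Ezh2 was at 0.10 ± 0.15, Kdm1b at 0.07 ± 0.08 and Kmt5a at 0.08 ± 0.10. Under antibiotics with acetate, 0 of 50 enzymes passed (0.0134% of all rows did) and 2 had an unadjusted p under 0.05, or 4% against 3.7% of all rows. Ash1l, an H3K36 methyltransferase, was at 7.58, 7.56, 7.61 and 7.55 in KO and 7.79, 7.70, 7.64 and 7.97 in WT, without overlap. The log2 fold was -0.20 ± 0.07 (adjusted p 0.999), that of Ehmt1 -0.19 ± 0.07 (adjusted p 0.999) and that of Nsd1 -0.14 ± 0.07 (adjusted p 0.999). Without WT_abx_and_acetate 4, the shallowest library, they were -0.11 ± 0.06 (adjusted p 0.995), -0.12 ± 0.07 (adjusted p 0.995) and -0.02 ± 0.06 (adjusted p 0.996). Kdm2b stood at 0.20 ± 0.10, Prmt9 at 0.12 ± 0.08 and Kdm4d at 0.32 ± 0.30. Over all treatments, 0 of 50 enzymes passed (0.0202% of all rows did) and 1 had an unadjusted p under 0.05, or 2% against 5.25% of all rows. That gene was Ehmt1, at -0.07 ± 0.03 (adjusted p 0.935), and without the 5 doubted libraries there were 2.

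**Figure D3:**
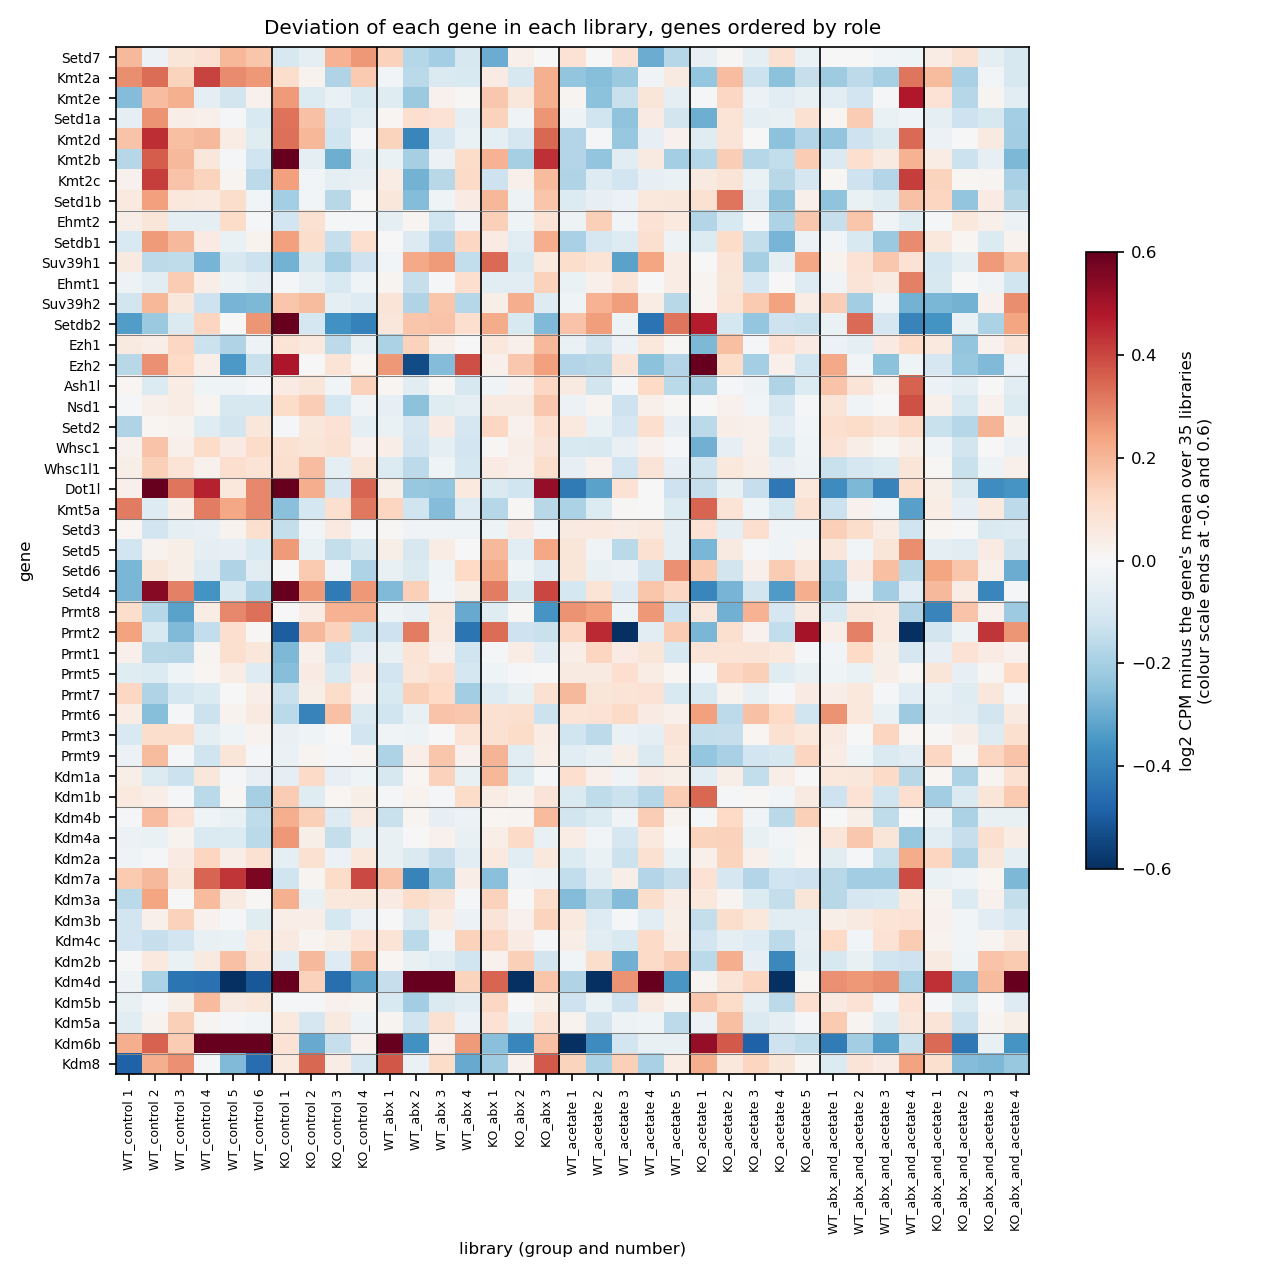
Log2 CPM minus each gene's mean over 35 libraries (colour, from -0.6 to 0.6) for 50 genes (rows, by role) and 35 libraries (columns, by group). Kmt2a and Kdm6b lie above their means in all 6 WT_control libraries.

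Each treatment was then set against water within a genotype; the comparisons within a genotype share their control libraries. With acetate in WT mice, 0 of 50 enzymes passed (0.00672% of all rows did) and 10 had an unadjusted p under 0.05, or 20% against 9.41% of all rows. All 10 were lower with acetate, where 4.84% of all rows were. Without the 5 doubted libraries, which leaves 2 of 5 in WT_acetate, 9 had an unadjusted p under 0.05. Kmt2a, Kdm6b, Kdm7a and Dot1l had the smallest p-values and are described first. Immediate early genes also leaned lower in WT_acetate, 21 of 22 with a median of -0.73, as did oligodendrocyte markers, 16 of 16 with a median of -0.36. Against WT_control, 18 of 22 immediate early genes had a fold below 0 in WT_abx (median -0.32) and 20 in WT_abx_and_acetate (median -0.71). Their part in the values below was not tested.

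Kmt2a (chromosome 9, 44803355 to 44881296, minus strand, GRCm38) was at 7.67 to 7.94 with a median of 7.82 in WT_control. It was at 7.30, 7.28, 7.31, 7.51 and 7.59 in WT_acetate and at 7.52, 7.37, 7.45 and 7.44 in WT_abx, all below every WT_control library. In WT_abx_and_acetate it was at 7.32, 7.38, 7.33 and 7.85, the last inside the WT_control range. The log2 folds were -0.41 ± 0.09 (adjusted p 0.158) with acetate, -0.37 ± 0.10 (adjusted p 0.208) with antibiotics and -0.33 ± 0.10 (adjusted p 0.0864) with both. Without WT_abx_and_acetate 4 the last was -0.47 ± 0.10 (adjusted p 0.0172). Without the 5 doubted libraries the acetate fold was -0.50 ± 0.13 (adjusted p 0.221) and the antibiotic fold -0.36 ± 0.13, which did not pass either. KO groups overlapped: KO_control was at 7.64, 7.56, 7.35 and 7.69 and KO_acetate at 7.30, 7.72, 7.40, 7.29 and 7.40.

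Kdm6b (chromosome 11, 69398508 to 69413675, minus strand) was at 3.99, 4.35, 4.62, 4.69 and 4.69 in WT_acetate and at 4.31, 4.52, 4.40 and 4.60 in WT_abx_and_acetate. Both groups lay below the lowest WT_control library, 4.89. The log2 folds were -0.71 ± 0.19 (adjusted p 0.193) and -0.72 ± 0.20 (adjusted p 0.0703), the latter the smallest adjusted p of any enzyme in the 18 comparisons. Without the 5 doubted libraries the acetate fold was -0.86 ± 0.27 (adjusted p 0.316). KO_acetate, at 5.26, 5.10, 4.25, 4.61 and 4.58, lay on both sides of KO_control. The genotype difference in the acetate effect was 0.83 ± 0.28 (adjusted p 0.997).

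Kdm7a (chromosome 6, 39136623 to 39206789, minus strand), a demethylase of H3K9 and H3K27, was at 5.76 to 6.25 with a median of 5.96 in WT_control and at 5.54, 5.62, 5.72, 5.51 and 5.55 in WT_acetate, without overlap. In WT_abx, at 5.86, 5.29, 5.46 and 5.73, 1 library reached the WT_control range. The log2 folds were -0.35 ± 0.10 (adjusted p 0.228) with acetate, -0.40 ± 0.11 (adjusted p 0.242) with antibiotics and -0.30 ± 0.11 (adjusted p 0.166) with both. Without WT_abx_and_acetate 4 the last was -0.44 ± 0.11 (adjusted p 0.0473). Without the 5 doubted libraries the acetate fold was -0.25 ± 0.14 (adjusted p 0.584) and the antibiotic fold -0.31 ± 0.14, which did not pass either.

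Dot1l (chromosome 10, 80755206 to 80795461, plus strand) had acetate folds below 0 in both genotypes. It was at 5.64, 5.74, 6.15, 6.06 and 5.94 in WT_acetate and 6.09 to 6.74 with a median of 6.37 in WT_control. In KO_acetate it was at 5.93, 6.02, 5.93, 5.64 and 6.13 and in KO_control at 6.997, 6.28, 5.97 and 6.42, so the groups overlapped in both genotypes. The log2 folds with acetate were -0.47 ± 0.15 (adjusted p 0.279) in WT and -0.49 ± 0.17 (adjusted p 0.255) in KO, and with antibiotics and acetate -0.54 ± 0.16 (adjusted p 0.0909) and -0.54 ± 0.18 (adjusted p 0.491). Without KO_control 1, the highest library, the KO folds were -0.28 ± 0.16 (adjusted p 0.638) and -0.35 ± 0.17 (adjusted p 0.844). The WT acetate fold was -0.49 ± 0.22 (adjusted p 0.496) without the 5 doubted libraries.

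**Figure D4:**
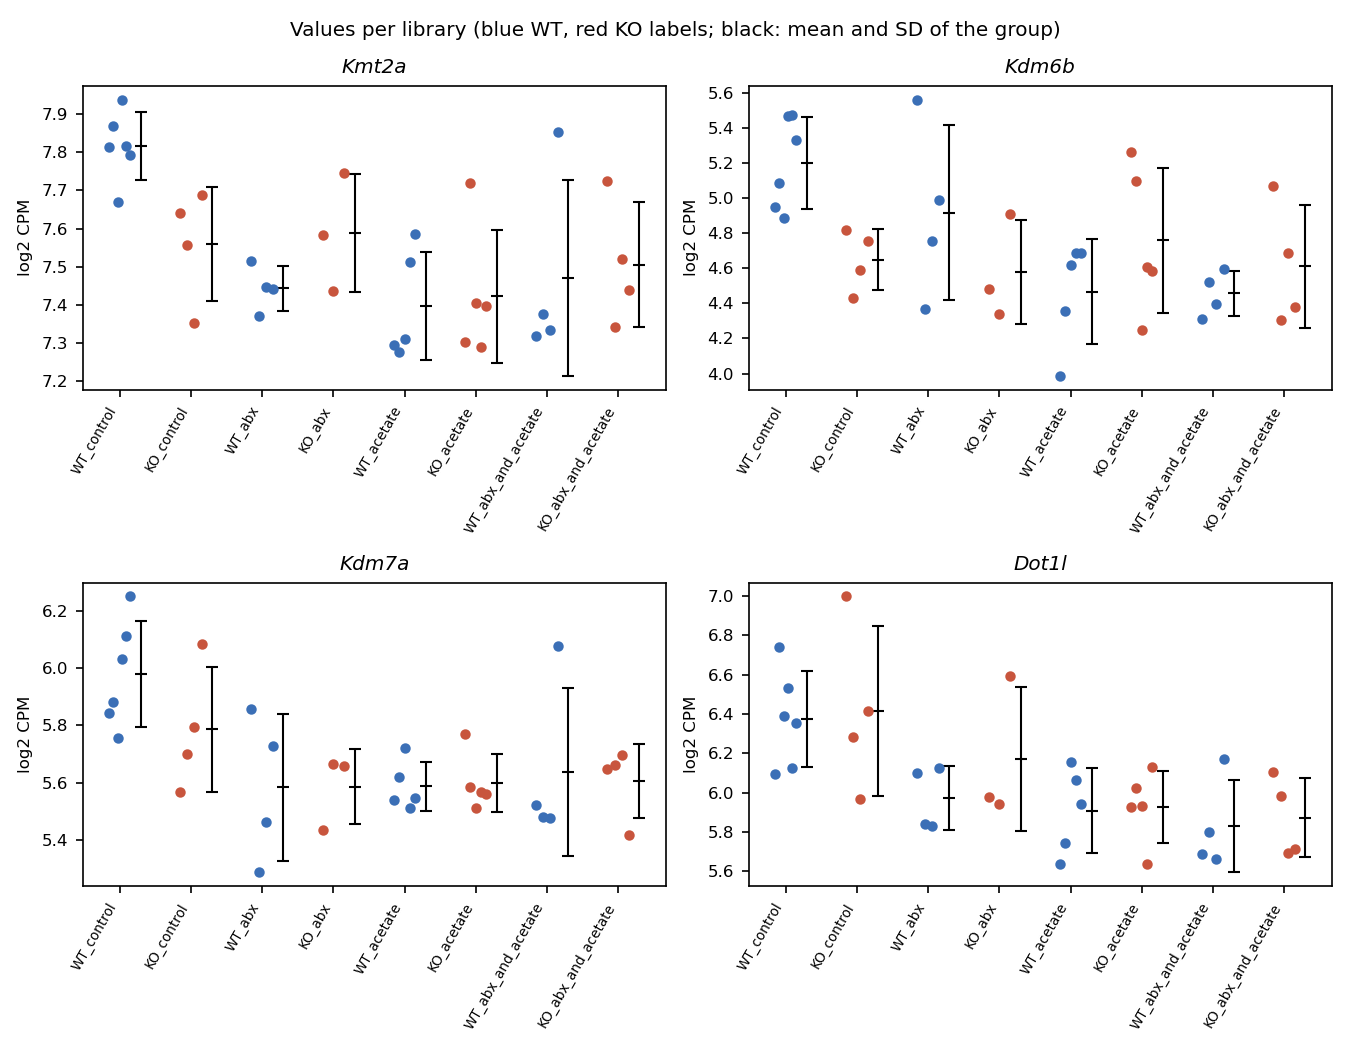
Log2 CPM of Kmt2a, Kdm6b, Kdm7a and Dot1l in each library of the 8 groups, with group means and SD. WT_acetate lies below WT_control without overlap for the first 3, and WT_abx_and_acetate 4 stands above its group for Kmt2a at 7.85 and Kdm7a at 6.08. The genes were picked for the smallest p-values of WT_acetate against WT_control, and WT_acetate 2, 4 and 5 are doubted libraries.

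The promoters of the 3 of these 4 genes that the RefSeq table (GRCm38.p6) holds are printed to show how CpG-rich they are. Each is 300 bases around the start, 5′ to 3′ on the gene's strand, with GC boxes (GGGCGG on either strand) in capitals: chr9:44881240-44881539 (minus), chr6:39206724-39207023 (minus) and chr10:80754953-80755252 (plus).
Kmt2a: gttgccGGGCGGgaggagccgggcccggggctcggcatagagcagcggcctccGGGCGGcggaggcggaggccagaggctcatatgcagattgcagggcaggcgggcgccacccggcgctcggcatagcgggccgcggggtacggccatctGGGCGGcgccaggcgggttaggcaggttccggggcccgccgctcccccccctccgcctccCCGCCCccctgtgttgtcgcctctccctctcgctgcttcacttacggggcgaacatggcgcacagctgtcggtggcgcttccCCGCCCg
Kdm7a: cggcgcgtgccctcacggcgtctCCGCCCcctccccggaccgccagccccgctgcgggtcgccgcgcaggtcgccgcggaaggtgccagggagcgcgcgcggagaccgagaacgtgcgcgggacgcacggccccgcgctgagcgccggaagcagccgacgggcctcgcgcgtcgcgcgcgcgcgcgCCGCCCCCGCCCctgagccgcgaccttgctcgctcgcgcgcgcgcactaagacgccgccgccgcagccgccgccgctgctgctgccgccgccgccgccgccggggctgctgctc
Dot1l: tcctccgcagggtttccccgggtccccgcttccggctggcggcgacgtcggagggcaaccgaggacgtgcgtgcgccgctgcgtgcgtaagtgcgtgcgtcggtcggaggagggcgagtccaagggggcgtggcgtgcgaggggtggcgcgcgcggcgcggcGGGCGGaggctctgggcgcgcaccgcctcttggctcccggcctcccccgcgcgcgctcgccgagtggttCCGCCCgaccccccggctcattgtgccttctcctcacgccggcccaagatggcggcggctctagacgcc
They hold 36, 65 and 49 CpG sites. The table held 50 promoters of 38 of the enzymes, with a median of 28 CpG sites against 7 over 32851 promoters of the same length. GC boxes were in 70% against 35.7%. The cyclic AMP response element (TGACGTCA) was in 4% against 1.79%, the AP-1 site (TGANTCA) in 6% against 7.81%, CCAAT in 42% against 37.4%, CCGGAAGT in 2% against 3.89% and TATAAA in 2% against 13.6%, all on either strand. Neither TGACGTCA nor TGANTCA is in the windows printed. A match describes letters only. The 32851 promoters were not limited to genes of the matrix, and some windows of the same gene overlap. These gaps are therefore not shown to be particular to the enzymes.

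Folds of H3K4 methyltransferases, Kmt2a included, were below 0 in WT_acetate for 8 of 8 (median -0.18), among them Kmt2d at -0.25 ± 0.11 (adjusted p 0.465) and Setd7 at -0.16 ± 0.08 (adjusted p 0.511). The count was not repeated without the 5 doubted libraries, and the share of all rows below 0 is not given here. Setd7 was at 7.32 and 7.32 in WT_acetate 1 and 3, inside the WT_control range of 7.20 to 7.43. In the doubted WT_acetate 2, 4 and 5 Setd7 was at 7.23, 6.93 and 7.06. The other lower genes included Kmt5a at -0.25 ± 0.10 (adjusted p 0.378) and Whsc1 at -0.12 ± 0.05 (adjusted p 0.37). Of the arginine methyltransferases 6 of 8 were above 0 (median 0.07), and of the H3K9 methyltransferases 5 of 6 (median 0.05). The higher genes with the smallest p were Suv39h1 at 0.16 ± 0.10 (adjusted p 0.637), Kdm4c at 0.09 ± 0.05 and Prmt7 at 0.11 ± 0.06. These were 0.03 ± 0.13, 0.05 ± 0.07 and 0.20 ± 0.08 without the 5 doubted libraries.

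With antibiotics alone in WT, 0 of 50 enzymes passed (0% of all rows did) and 11 had an unadjusted p under 0.05, or 22% against 9.05% of all rows. Of these 10 were lower, where 4.96% of all rows were, with Whsc1l1 at -0.17 ± 0.05 (adjusted p 0.263) next after Kmt2a and Kdm7a. The count was 4 in the fit without the 5 doubted libraries. The 1 higher was Kdm4d, the least abundant enzyme, at 0.14, 1.22, 0.93 and 0.41 in WT_abx and -0.60 to 0.25 with a median of -0.17 in WT_control. The groups overlapped, and the log2 fold was 0.81 ± 0.27 (adjusted p 0.329), or 0.61 ± 0.34 without the 5 doubted libraries. Suv39h1, which trimethylates H3K9 in heterochromatin, stood at 0.20 ± 0.10 (adjusted p 0.554) and Kdm4c at 0.08 ± 0.06 (0.04 ± 0.07 without those libraries).

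With antibiotics and acetate in WT, 0 of 50 enzymes passed (0.726% of all rows did) and 10 had an unadjusted p under 0.05, or 20% against 14.4% of all rows. Of these 4 were higher, against 7.04% of all rows, and 6 lower, against 7.32%. Those higher were Ash1l at 0.17 ± 0.06 (adjusted p 0.152), Kdm4c at 0.16 ± 0.06, Setd2, the main H3K36 trimethylase, at 0.15 ± 0.06 and Suv39h1 at 0.22 ± 0.10. Without WT_abx_and_acetate 4, Ash1l was at 0.09 ± 0.06 (adjusted p 0.447). The 6 lower were Kmt2a, Kdm6b, Kdm7a and Dot1l with Kmt5a at -0.30 ± 0.10 (adjusted p 0.152) and Whsc1l1 at -0.14 ± 0.05 (adjusted p 0.183).

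In KO with antibiotics, 0 of 50 enzymes passed (0.0134% of all rows did) and 1 had an unadjusted p under 0.05, or 2% against 3.3% of all rows. That gene was Suv39h1, at 5.08, 4.65 and 4.80 in KO_abx and 4.45, 4.64, 4.54 and 4.61 in KO_control, without overlap and with a fold of 0.28 ± 0.12 (adjusted p 0.999). Without KO_abx 1, the highest library, it was 0.16 ± 0.13. Prmt3 stood at 0.13 ± 0.07, Setd1b at 0.20 ± 0.11, Prmt8 at -0.25 ± 0.14, Setd7 at -0.16 ± 0.10 and Kdm7a at -0.18 ± 0.13. With acetate in KO, 0 of 50 enzymes passed (0% of all rows did) and 6 had an unadjusted p under 0.05, or 12% against 13% of all rows. Of these 5 were lower, against 6.44% of all rows. Whsc1 (NSD2), an H3K36 methyltransferase, was at 6.51, 6.75, 6.83, 6.70 and 6.77 in KO_acetate and 6.89, 6.87, 6.89 and 6.83 in KO_control. Its fold was -0.16 ± 0.05 (adjusted p 0.23), and -0.11 ± 0.04 (adjusted p 0.467) without KO_acetate 1, its lowest library. Ash1l stood at -0.16 ± 0.06 (adjusted p 0.288) and Prmt1 at 0.16 ± 0.06 (adjusted p 0.301), with Suv39h1 at 0.19 ± 0.11 and Prmt6 at 0.17 ± 0.10.

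With antibiotics and acetate in KO, 0 of 50 enzymes passed (0% of all rows did) and 4 had an unadjusted p under 0.05, or 8% against 7.42% of all rows. Of these 3 were lower, against 3.75% of all rows: Dot1l, Setd1a at -0.19 ± 0.09 (adjusted p 0.666) and Whsc1 at -0.11 ± 0.05 (adjusted p 0.666). Suv39h1 stood at 0.24 ± 0.11 (adjusted p 0.654), Prmt1 at 0.14 ± 0.07 and Prmt5 at 0.10 ± 0.06.

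Acetate given on top of antibiotics was compared with antibiotics alone. In WT, 0 of 50 enzymes passed (0% of all rows did) and 4 had an unadjusted p under 0.05, or 8% against 6.12% of all rows. All 4 were higher, against 3.36% of all rows: Nsd1 at 0.22 ± 0.07 (adjusted p 0.72), Ash1l at 0.19 ± 0.06 (adjusted p 0.72), Kdm5b at 0.17 ± 0.06 (adjusted p 0.726) and Setd2 at 0.15 ± 0.07 (adjusted p 0.787). Without WT_abx_and_acetate 4, Nsd1 was at 0.11 ± 0.06 and Ash1l at 0.11 ± 0.06, and the fit without the 5 doubted libraries gave 3 at an unadjusted p under 0.05. Kdm6b stood at -0.44 ± 0.22, Kdm3a at -0.12 ± 0.08 and Kdm4d at -0.33 ± 0.30 (-0.14 ± 0.36 without the 5). In KO, 0 of 50 enzymes passed (0% of all rows did) and 1 had an unadjusted p under 0.05, or 2% against 2% of all rows. That gene was Setd1a, an H3K4 methyltransferase, at 6.05, 5.98, 6.01 and 5.90 with acetate and 6.24, 6.08 and 6.37 without, and a fold of -0.22 ± 0.10 (adjusted p 1), or -0.12 ± 0.11 without KO_abx 3. Setd5 stood at -0.17 ± 0.09, Kdm3b at -0.11 ± 0.06, Kdm4d at 0.47 ± 0.32, Prmt5 at 0.06 ± 0.07 and Kdm2b at 0.08 ± 0.11. Here 39 of 50 folds were below 0 (median -0.07), where 50.2% of all rows were above 0, in a comparison that shares its 3 KO_abx libraries with KO against WT under antibiotics.

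Over groups with antibiotics against those without, 0 of 50 enzymes passed (0% of all rows did) and 9 had an unadjusted p under 0.05, or 18% against 7.32% of all rows. Of these 4 were higher, against 3.69% of all rows, led by Suv39h1 at 0.15 ± 0.05 (adjusted p 0.55) and Kdm4d at 0.37 ± 0.14, and 5 lower, against 3.63%, led by Kdm7a at -0.14 ± 0.06, Kmt5a at -0.13 ± 0.05 and Prmt8 at -0.16 ± 0.06. The 9 became 3 without the 5 doubted libraries. Over groups with acetate against those without, 0 of 50 enzymes passed (0.0672% of all rows did) and 9 had an unadjusted p under 0.05, or 18% against 18.1% of all rows. Of these 8 were lower, against 9.16% of all rows: Dot1l led at -0.35 ± 0.09 (adjusted p 0.0812), followed by the H3K9 demethylase Kdm3a at -0.12 ± 0.04 (adjusted p 0.142), Setd1a at -0.13 ± 0.04 (adjusted p 0.146) and Kmt2a at -0.15 ± 0.05 (adjusted p 0.154). Without WT_abx_and_acetate 4, Dot1l was at -0.38 ± 0.08 (adjusted p 0.033) and Kmt2a at -0.19 ± 0.05 (adjusted p 0.0481). Without KO_control 3, Dot1l was at -0.39 ± 0.08 (adjusted p 0.0382). Prmt1 stood at 0.07 ± 0.03, Prmt5 at 0.06 ± 0.03 and Suv39h1 at 0.08 ± 0.05 (0.04 ± 0.06 without the 5 doubted libraries, when 7 enzymes had an unadjusted p under 0.05). All 8 H3K4 methyltransferases were below 0 (median -0.08). This count was not repeated without the 5 doubted libraries, and the share of all rows below 0 is not given here.

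Whether genotypes differed in a treatment effect was tested as an interaction. For antibiotics, 0 of 50 enzymes passed (0% of all rows did) and 4 had an unadjusted p under 0.05, or 8% against 2.47% of all rows. Of these 3 were higher in KO, against 1.32% of all rows: Kmt2a at 0.41 ± 0.15 (adjusted p 1), Kdm5b at 0.21 ± 0.09 and Setd1b at 0.33 ± 0.14, with Kdm4d at -0.96 ± 0.42. For acetate, 0 of 50 enzymes passed (0% of all rows did) and 3 had an unadjusted p under 0.05, or 6% against 3.65% of all rows: Kdm6b, Kdm4c at -0.22 ± 0.08 (adjusted p 0.997) and Kmt5a at 0.32 ± 0.14 (adjusted p 0.997). For both, 0 of 50 enzymes passed (0% of all rows did) and 4 had an unadjusted p under 0.05, or 8% against 4.53% of all rows. Of these 3 were lower, against 2.23% of all rows: Ash1l at -0.27 ± 0.09 (adjusted p 0.877), Kdm4c at -0.20 ± 0.08 and Setd2 at -0.19 ± 0.09, with Kdm6b at 0.67 ± 0.30. Without the 5 doubted libraries the counts at an unadjusted p under 0.05 were 4 for antibiotics, 6 for acetate and 3 for both.

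The remaining well-known enzymes are given by their range over the 12 comparisons between pairs of groups. Folds of Ehmt2 ran from -0.11 to 0.11, of Kdm1a from -0.06 to 0.06, of Ezh1 from -0.11 to 0.11, of Setd5 from -0.17 to 0.15 and of Prmt8 from -0.25 to 0.09. Those of Ezh2, at low counts, ran from -0.28 to 0.30.

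Each enzyme was also correlated with the mean deviation of the 22 immediate early genes over 35 libraries, a family of 50 relations. The permutations shuffled all 35 libraries without regard to group or sex, so their p-values also take in differences between groups. No p-value was computed for r within groups. Kdm6b had a Pearson's r of 0.66 (permutation p 4e-05, adjusted 0.002) and a Spearman's rho of 0.59 (permutation p 0.00031, adjusted 0.0155). Without the 2 libraries farthest from the median r was 0.69, and within groups and labelled sex 0.49. Kmt5a (r 0.54, permutation p 0.00066, adjusted 0.0165; rho 0.50, permutation p 0.00252, adjusted 0.042) and Setd7 (r 0.50, permutation p 0.00211, adjusted 0.0304; rho 0.51, permutation p 0.00174, adjusted 0.042) passed by both measures, with r of 0.46 and 0.44 without those libraries and 0.53 and 0.55 within groups. Kdm7a passed by r alone (r 0.50, permutation p 0.00243, adjusted 0.0304; rho 0.37, permutation p 0.0279, adjusted 0.199), with r of 0.43 without those libraries and 0.37 within groups. Kmt2a passed by neither (r 0.44, permutation p 0.00932, adjusted 0.0932; rho 0.39, adjusted permutation p 0.192), with r of 0.22 within groups. No enzyme with r below 0 passed. Of these, Kdm1b had r -0.41 (permutation p 0.0154, adjusted 0.117), or -0.48 within groups. Kdm4a had r -0.40 (permutation p 0.0164, adjusted 0.117), or -0.27 within groups. The labels name no batch.

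**Figure D5:**
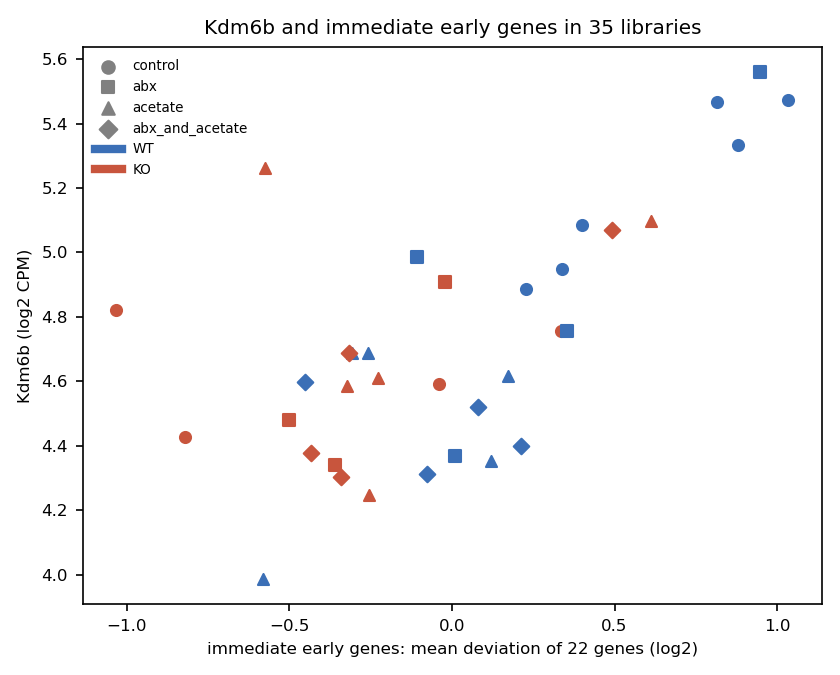
Kdm6b in log2 CPM against the mean deviation of 22 immediate early genes (log2), 1 point per library, coloured by genotype label and shaped by treatment. Libraries with higher immediate early genes have higher Kdm6b (Pearson's r 0.66).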

How the data were processed

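The authors deposited 1 matrix of log2 CPM for 14870 genes, and its 35 columns carry sample titles (0 other columns). The submitters' processing notes name limma without a version; aligner, counter, build and filters were not found in the labels. All values (100%) came out as whole reads plus 0.5 within 0.01, which gave the depths. limma 3.58.1 in R 4.3.3 was fitted to the deposited log2 values: 8 group means and labelled sex, a prior variance following the mean, all 35 libraries, 18 comparisons, 2-sided p-values adjusted over all rows (Benjamini-Hochberg, 0.05). The fit was tested on simulated data. Correlations used 100000 permutations of all 35 libraries, without regard to group or sex. The members and lists were chosen with earlier results of these data known. Named were, in each comparison between pairs of groups, the 3 members of each direction with the smallest p. In comparisons over groups and in interactions only some of these were named. Also named were the highest and lowest of each role and 15 well-known enzymes. A few further genes were named after their values were seen. Alternatives were voom weights, library quality weights, a filter at mean 0, median centring, no sex term, RIN, a constant prior, only the groups compared, each library left out and, added after seeing the data, fits without the doubted libraries.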

Additional observations from a re-analysis of the deposited data

Results flagged for a closer look

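Single libraries far from the rest of their group were looked for in 273 sets of values (log2 CPM of 38 named enzymes and the mean deviation of all 50, in each group but KO_abx, which has 3 libraries) and 19 were found. Chance gives about 1 in 20. KO_acetate 1, with high striatal and oligodendrocyte markers, held 5. In it Ezh2 was at 3.17 against 2.07 to 2.39, Kdm1b was at 3.75 against 3.39 to 3.46, Kdm7a was at 5.77 against 5.51 to 5.58, Setd5 was at 6.56 against 6.81 to 6.89, Setdb2 was at 2.27 against 1.56 to 1.69 in the others. WT_abx_and_acetate 4, the shallowest library, held 3. In it Kdm4d was at 0.088 against 0.54 to 0.56, Kdm7a was at 6.08 against 5.48 to 5.52, Kmt2a was at 7.85 against 7.32 to 7.38 in the others. In KO_abx_and_acetate 2, Ezh1 was at 5.87 against 6.13 to 6.18. In KO_control 1, Ezh2 was at 2.76 against 2.28 to 2.36. In WT_acetate 3, Ezh2 was at 2.36 against 2.03 to 2.11. In KO_control 2, Kdm1a was at 5.89 against 5.72 to 5.75. In the library labelled WT_acetate 5, Kdm1b was at 3.56 against 3.24 to 3.32. In KO_acetate 4, Kdm4d was at -0.71 against 0.28 to 0.40. In KO_abx_and_acetate 1, Kdm8 was at 2.24 against 1.88 to 1.92. In KO_acetate 2, Kmt2a was at 7.72 against 7.29 to 7.40. In WT_abx 2, Nsd1 was at 6.91 against 7.08 to 7.10. In KO_acetate 5, Prmt1 was at 5.73 against 5.81 to 5.83. In WT_control 2, Setd1a was at 6.37 against 6.01 to 6.14. The part of markers and depth in these values was not tested.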

How the results depend on the processing

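The count of 0 enzymes past the threshold held in 15 of 18 comparisons under every alternative run. With library quality weights it became 3 for acetate against control in WT (Kmt2a, Kdm6b, Kdm7a; 0.451% of all rows), 5 for abx_and_acetate against control in WT (these with Dot1l and Whsc1l1; 6.74%) and 1 for acetate present against absent (Dot1l; 1.22%). With only the groups compared it became 1 for abx_and_acetate against control in WT (Kdm6b; 0.303%). Leaving out each library in turn gave 0 to 2 for abx_and_acetate against control in WT and 0 to 2 for acetate present against absent, with calls without WT_abx_and_acetate 4 (0.968% and 1.13% of all rows) and, for the latter, also without KO_control 3 (0.296%). Of 108 folds, those with the smallest p in each direction of each comparison, 49 moved by over 1.5 times when some library was left out. Without the doubted libraries 14 did, and not all of the 108 are given above. The genotype difference in the antibiotic effect on Setdb2, -0.30 as reported, was 0.047 with library quality weights and -0.44 to 0.082 with each library left out, above 0 without KO_control 1. The cause was not tested. No paired analysis was possible because the labels give no replicate numbers.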

Other observations

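Partner lists were read in the same fit, and 0 of their genes passed the threshold in any comparison (limma). At an unadjusted p under 0.05, acetate against control in WT gave 1 higher and 2 lower of 31 genes of cosubstrate metabolism, 4 higher and 4 lower of 19 COMPASS and MLL subunits, 3 higher and 1 lower of 33 polycomb genes, 1 higher and 1 lower of 21 H3K9 and repressor partners, 3 higher and 5 lower of 24 further methyltransferases and demethylases, 0 higher and 0 lower of 16 histone acetyltransferases and 0 higher and 1 lower of 11 classical deacetylases. Of all rows 9.41% had such a p in either direction. Mat2a, which makes S-adenosylmethionine, stood at -0.23 ± 0.07 (adjusted p 0.221), and Jmjd1c, a relative of the H3K9 demethylases, at -0.25 ± 0.07 (adjusted p 0.2). Wdr5, a scaffold of COMPASS and MLL complexes, stood at 0.15 ± 0.06 (adjusted p 0.364). The median of the 19 COMPASS and MLL subunits was 0.06. That of the 8 genes grouped as H3K4 methyltransferases, not all of which need be in such complexes, was -0.18.

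With acetate in KO, Idh1, which makes alpha-ketoglutarate, stood at 0.36 ± 0.09 (adjusted p 0.205) and Jmjd1c at -0.23 ± 0.08 (adjusted p 0.23). With antibiotics and acetate in WT, Phf20 stood at 0.25 ± 0.06 (adjusted p 0.053), the acetyltransferase Kat6b at 0.27 ± 0.07 (adjusted p 0.0577) and the deacetylase Hdac5 at -0.30 ± 0.09 (adjusted p 0.102). Over groups with acetate against those without, cosubstrate metabolism gave 8 higher and 3 lower of 31 at an unadjusted p under 0.05 (18.1% of all rows), among them Mat2a at -0.12 ± 0.04 (adjusted p 0.128) and Idh3a, a mitochondrial subunit for alpha-ketoglutarate, at 0.10 ± 0.03 (adjusted p 0.151).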
